A study of Homo sapiens with 3 samples.

Results

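The genes described here are 38 that estrogen is known to induce in breast cancer cells, followed in T47D cells after knockdown of the long noncoding RNA ERINA. They were taken from the deposited expression table by gene symbol, and all 38 were found, each on 1 row of the 58039 genes listed. Of these, 35 had a mean of at least 1 FPKM (fragments scaled to transcript length and library size) over the 3 libraries and were among the 13112 genes tested. EGR3, HEY2 and WISP2 lay below that level and are given by their FPKM alone. The set was put together with the division of its members in view, so which of them were higher and which lower is given as a description.

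T47D is an established line of human luminal breast cancer that expresses the estrogen receptor. The study has 1 control library and 2 knockdown libraries, the latter from cells with different short hairpin RNAs (shRNA1 and shRNA2), delivered by lentivirus and kept as stable cells under puromycin. The control is a control hairpin by its description label, while its shRNA label reads None. No estrogen treatment or withdrawal is given in the labels, so "estrogen-induced" refers to what is known of these genes and not to a treatment here. Both hairpins are compared with the same control library, and no condition has a repeat, so the p-values measure only the spread between the shRNA libraries.

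Estrogen binds its receptor, a transcription factor encoded by ESR1, which then occupies DNA at estrogen response elements. Most of these lie in enhancers away from promoters, where the pioneer factor FOXA1 opens the chromatin and coactivators such as NCOA3 are recruited. In luminal breast cancer the response has a proliferative part, with cell cycle genes driven by E2F factors, and a part made of secreted proteins, receptors, signalling proteins and transporters that mark the hormone-responsive state. The 38 genes belong to the second part.

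The hairpin target was lower in both knockdown libraries. ERINA, which RefSeq lists as a synonym of LINC00992, measured 63.4 FPKM in control cells, 5.21 FPKM under shRNA1 and 8.91 FPKM under shRNA2, a log2 change of -3.12 (SE 0.33). The depth, estimated from genes that held a single fragment, was 32760000, 33410000 and 34100000 fragments in control, shRNA1 and shRNA2. The total FPKM was 790300, 860200 and 808500, and the 38 genes together took 0.312%, 0.314% and 0.313% of it. All 8 luminal markers were present, from 16.8 to 3152 FPKM in the control. Their summed level was 8467 FPKM in the control and 10140 and 8770 FPKM with shRNA1 and shRNA2. Of 9 basal or myoepithelial markers 3 (ACTA2, EGFR and TP63) reached a mean of 1 FPKM, as did 3 of 8 fibroblast markers (COL1A1, LUM and VIM) and 0 of 4 endothelial markers. The basal markers summed to 15.2, 13.4 and 15.8 FPKM and the fibroblast markers to 7.63, 6.05 and 7.06 FPKM over control, shRNA1 and shRNA2 in turn. In such bulk libraries, fewer cells of a kind and less RNA per cell cannot be told apart. The part of these shifts in the values below was not tested.

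The set was divided. With shRNA1, 27 of the 38 genes were above the control and 11 below, and with shRNA2, 21 were above and 17 below. Over all genes tested, 49.8% were above and 50.1% below with shRNA1, and 49.97% above and 49.8% below with shRNA2. Of the 35 tested members, 74.3% were above with shRNA1 and 57.1% with shRNA2, so the shRNA2 division was near the background. Both knockdown values lay above the control for 21 genes, both lay below for 11, and the control lay between them for 6. Among the 35 tested genes this was 20 above and 9 below, beside a background of 42.4% above and 42.6% below over all genes tested. The median log2 change of the tested members was 0.13 (0.15 with shRNA1 and 0.13 with shRNA2), against 0.0005 for all genes tested. The counts depend on the scale between libraries. After scaling each library to an equal total FPKM, the 38 genes divided as 19 above and 15 below. The median of the tested members was then 0.06, against -0.07 for all genes tested. That scaling takes 0.12 from every shRNA1 value and 0.03 from every shRNA2 value (log2), and it moved 5 genes: CELSR2, CTSD, ADCY9 and TIPARP to below the control with both hairpins, and PDZK1 to either side of it. Scaling to an equal upper quartile went the other way, with 23 above, 10 below and 5 on either side. There, TIPARP and SYT12 moved to above the control with both hairpins and CA12 to either side of it.

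Limma called none of the 35 tested members across the whole table (0 at a Benjamini-Hochberg adjusted p under 0.05, beside a background of 0.0839% higher, 0.267% lower and 0.351% in either direction). At an unadjusted p under 0.05 there were 13 higher and 3 lower, where the background was 13.7% and 15.9%. When protein-coding genes were tested alone by limma, 9 members were called higher and 2 lower, where the background was 7.11% higher and 11.3% lower. The 9 were ANXA9, RERG, MREG, SGK3, CXCL12, IGF1R, UGCG, SLC9A3R1 and THBS1, and the 2 were STC2 and TSKU. The words higher and lower are used below for values, not for calls over all genes. Where 3 FPKM follow each other without a library name, they are those of control, shRNA1 and shRNA2 in turn.

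**Figure D1:**
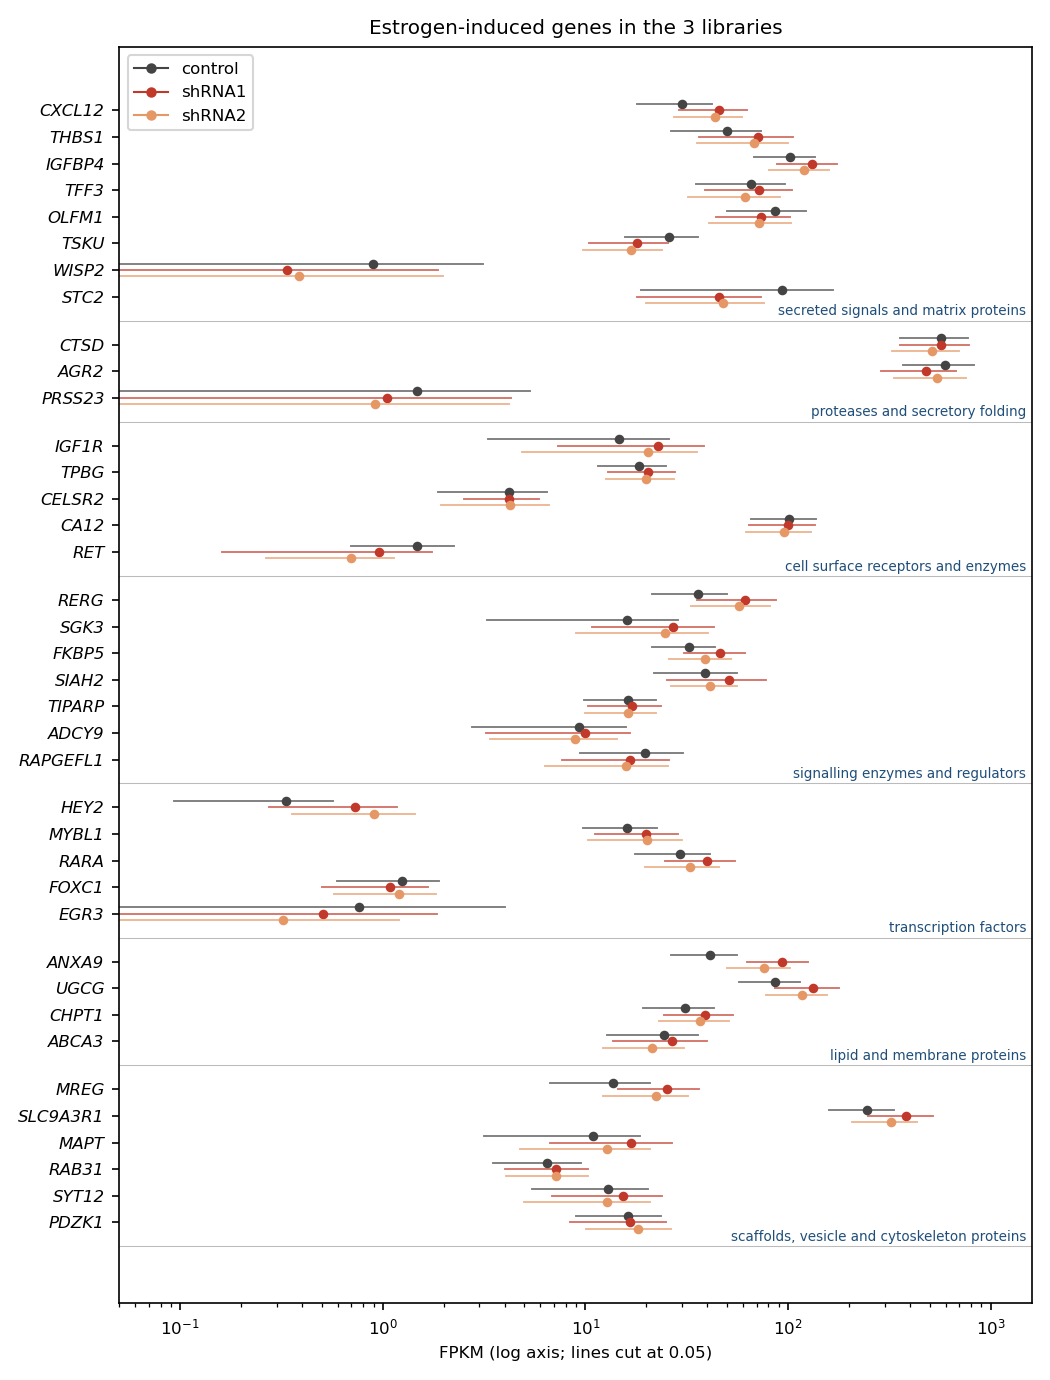
FPKM of the 38 estrogen-induced genes on a log axis, grouped by role, in the control (grey), shRNA1 (red) and shRNA2 (orange) libraries. Points are the deposited FPKM and lines their deposited confidence bounds, which overlap between control and at least 1 knockdown library for every gene shown; ANXA9 with shRNA1 lies clear of its control.

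At least 1.5-fold above the control with both hairpins were 4 of the tested members, ANXA9, MREG, RERG and SGK3, and at least 1.5-fold below it were 2, STC2 and RET. Over all genes tested the shares were 5.66% above and 7.21% below, against which these are 4 and 2 of 35. Promoter sequence is shown for ANXA9, MREG and RET, since the estrogen receptor acts by binding DNA. The set is named for induction by estrogen, and binding at these genes was not measured. The windows searched are the 250 bases before each RefSeq transcript start in GRCh38.p14, read 5′ to 3′ on the gene's strand. Capitals mark GGTCA or its reverse complement TGACC, the 5-base arm of the estrogen response element. For ANXA9 the window lies inside an annotated 5′ UTR exon (GENCODE release 29), and 29 bases around the arm are given, chr1:150982232-150982260 on the plus strand. The MREG run is the whole window before the outermost of 3 starts, chr2:216034097-216034346 on the minus strand, and touches no annotated exon. The RET run, chr10:43076819-43077026 on the plus strand, is the 208 bases of the window at the first of 2 starts that precede the first exon, and it holds no arm.
ANXA9: gtccctaagagaGGTCAtctgactggctg
MREG: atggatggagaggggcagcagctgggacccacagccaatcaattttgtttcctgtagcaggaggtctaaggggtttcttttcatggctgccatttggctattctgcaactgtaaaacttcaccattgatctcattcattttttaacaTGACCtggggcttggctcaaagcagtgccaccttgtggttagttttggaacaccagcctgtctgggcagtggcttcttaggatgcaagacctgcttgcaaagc
RET: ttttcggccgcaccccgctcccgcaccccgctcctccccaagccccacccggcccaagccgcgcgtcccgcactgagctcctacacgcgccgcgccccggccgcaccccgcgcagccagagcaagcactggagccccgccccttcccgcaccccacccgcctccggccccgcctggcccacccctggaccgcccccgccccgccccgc
The arm begins 48 bases before the ANXA9 start and 103 bases before the outermost MREG start. The other 2 MREG windows lack it, and neither window of RET nor the single window of STC2 holds it. All 250 bases of the STC2 window lie inside annotated exon sequence, so sequence before the GENCODE start of STC2 was not searched. RefSeq windows were found for 29 of the 38 genes, 44 windows in all; ADCY9, EGR3, MAPT, MYBL1, RERG, SGK3, SYT12, TFF3 and WISP2 were not matched. The whole element, GGTCA and TGACC with 3 bases of any kind between them, searched on both strands, was in 0 of the 44 windows and in 0.0399% of all 35093 promoter windows. The arm, searched on both strands and also counted inside whole elements, was in 16 of the 44 windows (36.4%), against 32.6% of all windows. By gene, it was present for 9 of the 17 matched genes whose knockdown values both lay above the control and for 4 of the 9 whose values both lay below, against 37.6% of all 27305 genes in the promoter table. The matched members have 1.52 windows per gene and all genes 1.28, which gives the members more chances of a match. A match to these letters is a description of the window only.

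Secreted signals and matrix proteins lay on both sides of the control. STC2, a secreted glycoprotein hormone, measured 93.1 FPKM in control cells, 45.7 FPKM under shRNA1 and 47.8 FPKM under shRNA2. Both knockdown values were below the control, 2.03-fold with shRNA1 and 1.94-fold with shRNA2, a log2 change of -0.98 (SE 0.08) with a limma adjusted p (Benjamini-Hochberg) of 0.0721, and of 0.00325 to 0.227 over the alternatives. It was the lowest change of the tested members. The deposited control bounds of STC2 are wide, from 18.7 to 167 FPKM, and overlap both knockdown libraries. TSKU, a secreted leucine-rich proteoglycan, had 25.8 FPKM in the control library, 18.04 under shRNA1 and 16.8 under shRNA2, a log2 change of -0.56 (SE 0.10). OLFM1, a secreted olfactomedin, had 86.2 FPKM in the control library, 73.2 under shRNA1 and 72.3 under shRNA2, lower by a similar amount with both hairpins. WISP2, a matricellular protein of the CCN family, had levels of 0.891, 0.338 and 0.384 FPKM, with bounds that start at 0 in each library, and an overlapping transcript on the other strand, KCNK15-AS1, averaged 2.09 FPKM.

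Other secreted proteins lay on the opposite side. CXCL12, a chemokine, measured 30.0 FPKM in control cells, 45.8 FPKM under shRNA1 and 43.4 FPKM under shRNA2, which is 1.53-fold and 1.45-fold above the control (log2 change 0.56, SE 0.09, limma adjusted p of 0.0837 by Benjamini-Hochberg). THBS1, the matrix glycoprotein thrombospondin, had 49.9 FPKM in the control library, 71.1 under shRNA1 and 67.6 under shRNA2. IGFBP4, which binds insulin-like growth factors outside the cell, had levels of 102, 131 and 119.9 FPKM. For these 3 the knockdown values were close to each other and above the control. TFF3, a trefoil peptide of mucosal surfaces, did not separate the groups, at 65.7, 72.2 and 61.5 FPKM. In all, of the 8 genes of this role, 3 had both knockdown values above the control, 4 below and 1 on either side.

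Proteases and secretory folding held 0 genes above the control with both hairpins. AGR2, a disulfide isomerase of the secretory pathway and the most abundant member, measured 598 FPKM in control cells, 479 FPKM under shRNA1 and 545 FPKM under shRNA2, a log2 change of -0.23 (SE 0.12). CTSD, the lysosomal protease cathepsin D, had levels of 567, 569.6 and 511 FPKM, with the control between the hairpins. PRSS23, a secreted serine protease, had levels of 1.47, 1.05 and 0.914 FPKM, with bounds from 0 in every library. PRSS23 is overlapped on the other strand by FZD4, which averaged 7.46 FPKM, and whether reads were counted by strand is not given in the sources used here.

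**Figure D2:**
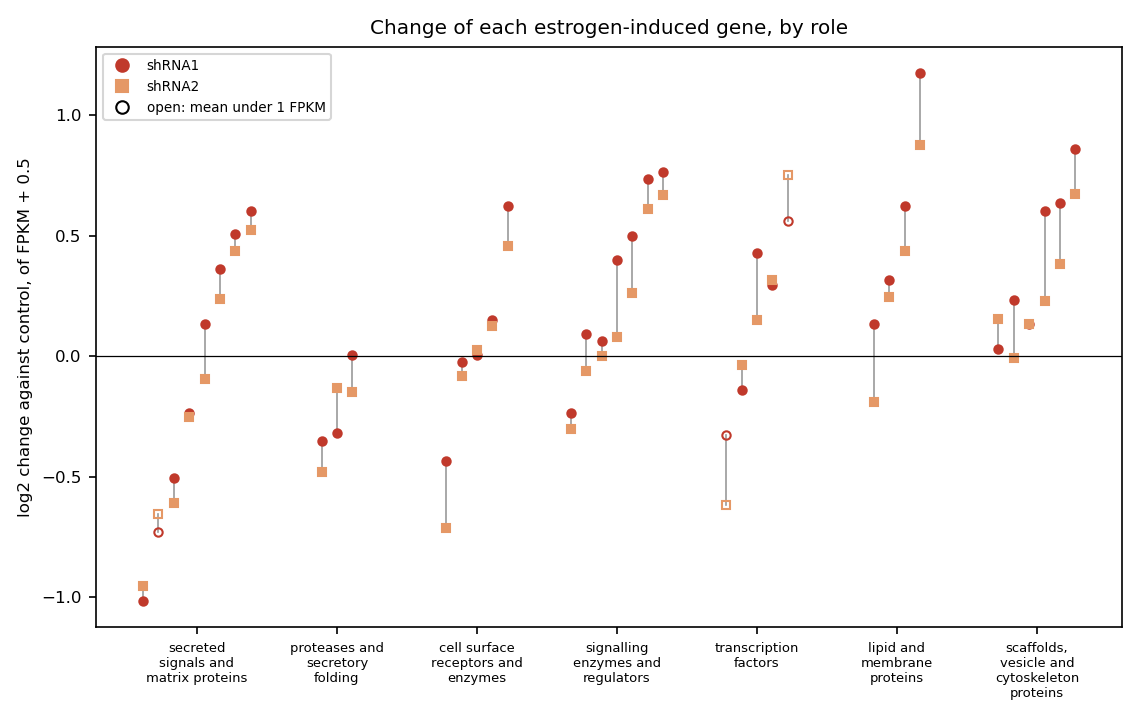
Log2 change against the control of each of the 38 genes, on log2(FPKM + 0.5), by role; circles are shRNA1, squares shRNA2, a line joins the values of 1 gene, and open symbols mark the 3 genes under a mean of 1 FPKM. In the lipid group and the scaffold group 0 genes lie below 0 with both hairpins, whereas the secreted group spans STC2 at -1.02 and -0.95 to CXCL12 at 0.60 and 0.53.

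The receptors and enzymes of the cell surface showed little change except at the ends. IGF1R, the receptor of insulin-like growth factors, measured 14.6 FPKM in control cells, 22.8 FPKM under shRNA1 and 20.3 FPKM under shRNA2, a log2 change of 0.54 (SE 0.12). RET, a receptor tyrosine kinase for ligands of the GDNF family, had 1.47 FPKM in the control library, 0.955 under shRNA1 and 0.699 under shRNA2, a log2 change of -0.58 (SE 0.24). IGF1R is thus higher and RET lower, both with wide bounds, from 3.30 to 25.9 FPKM and from 0.700 to 2.24 FPKM in the control. The other 3 lay close to the control, the largest log2 change with a single hairpin being 0.15 (TPBG with shRNA1). These were the carbonic anhydrase CA12 (101, 99.6 and 95.6 FPKM), the tumour-associated glycoprotein TPBG (18.3, 20.4 and 19.98 FPKM) and the cadherin-family receptor CELSR2 (4.18, 4.19 and 4.27 FPKM).

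Among signalling enzymes and regulators, 4 of 7 were above the control with both hairpins. RERG, a Ras-like protein that is named for its induction by estrogen and restrains growth, measured 35.8 FPKM in control cells, 61.3 FPKM under shRNA1 and 57.3 FPKM under shRNA2. These are 1.71-fold and 1.60-fold above the control, a log2 change of 0.72 (SE 0.09) with a limma adjusted p (Benjamini-Hochberg) of 0.0829, and of 0.00673 to 0.227 over the alternatives. SGK3, a kinase that acts downstream of phosphoinositide signals, had 16.03 FPKM in the control library, 27.1 under shRNA1 and 24.7 under shRNA2, a log2 change of 0.67 (SE 0.11). FKBP5, a co-chaperone of steroid receptors that several steroid hormones induce, had levels of 32.4, 45.96 and 38.9 FPKM. SIAH2, a ubiquitin ligase, had levels of 38.8, 51.4 and 41.1 FPKM, high with shRNA1 and near the control with shRNA2. RAPGEFL1, a protein related to exchange factors for Rap, was the member of this role below the control with both hairpins, at 19.7, 16.7 and 15.9 FPKM. The adenylyl cyclase ADCY9 (9.30, 9.93 and 8.88 FPKM) and the ADP-ribosyltransferase TIPARP (16.2, 16.9 and 16.1 FPKM) had the control between the hairpins. TIPARP is overlapped on the other strand by TIPARP-AS1, which averaged 6.999 FPKM.

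Of the transcription factors, MYBL1 and RARA were moderately above the control. MYBL1, a relative of the MYB oncoprotein, had 16.1 FPKM in the control library, 19.9 under shRNA1 and 20.2 under shRNA2, a log2 change of 0.31 (SE 0.09). RARA, a retinoic acid receptor, had 29.3 FPKM in the control library, 39.7 under shRNA1 and 32.7 under shRNA2, a log2 change of 0.29 (SE 0.15). The remaining 3 were low in all libraries. HEY2, a repressor downstream of Notch, had levels of 0.332, 0.728 and 0.901 FPKM, 2.19-fold and 2.72-fold above the control with overlapping bounds. EGR3, a zinc finger factor of the early growth response family, had levels of 0.764, 0.506 and 0.323 FPKM with bounds from 0 in each library, and an overlapping transcript on the other strand, AC055854.1, averaged 10.2 FPKM. FOXC1, a forkhead factor, had levels of 1.24, 1.08 and 1.20 FPKM.

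Lipid and membrane proteins included the highest change of the tested members. ANXA9, an annexin, measured 41.3 FPKM in control cells, 93.9 FPKM under shRNA1 and 76.3 FPKM under shRNA2. It was 2.27-fold and 1.85-fold above the control, a log2 change of 1.03 (SE 0.15) with a limma adjusted p (Benjamini-Hochberg) of 0.0833, and of 0.00592 to 0.248 over the alternatives. The shRNA1 bounds of ANXA9, from 62.4 to 125 FPKM, were clear of the control bounds, from 26.6 to 56.04 FPKM, and the shRNA2 bounds began at 50.2 FPKM. UGCG, the enzyme that makes glucosylceramide, had 86.1 FPKM in the control library, 133 under shRNA1 and 117 under shRNA2, a log2 change of 0.53 (SE 0.11). CHPT1, which completes the synthesis of phosphatidylcholine, had levels of 31.1, 38.9 and 36.96 FPKM. ABCA3, a lipid transporter, had levels of 24.4, 26.8 and 21.3 FPKM, with the control between the hairpins.

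Scaffold, vesicle and cytoskeleton proteins were above the control with both hairpins in 5 of 6 cases, by very unequal amounts. After scaling to an equal total these were 4, where PDZK1 falls on either side. With an equal upper quartile they were 6, where SYT12 joins them. MREG, melanoregulin, a protein of organelle transport, measured 13.7 FPKM in control cells, 25.4 FPKM under shRNA1 and 22.2 FPKM under shRNA2, a log2 change of 0.77 (SE 0.12). MREG overlaps PECR on the same strand, which averaged 10.7 FPKM, so the division of reads between them is uncertain. SLC9A3R1, a PDZ scaffold under the apical membrane, had 246 FPKM in the control library, 383 under shRNA1 and 321 under shRNA2, a log2 change of 0.51 (SE 0.14). PDZK1, a scaffold of the same PDZ family, had levels of 16.3, 16.6 and 18.2 FPKM, a log2 change of 0.09 (SE 0.11). Of these related scaffolds, then, SLC9A3R1 stood 1.56-fold and 1.30-fold above its control and PDZK1 1.02-fold and 1.12-fold, and the difference between the genes was not tested. MAPT, the microtubule protein tau, had levels of 10.9, 16.8 and 12.8 FPKM, the knockdown values lying far apart. RAB31, a GTPase of vesicle traffic, had 6.49, 7.16 and 7.17 FPKM, and SYT12, a synaptotagmin, 12.9, 15.3 and 12.8 FPKM.

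Set against function, the counts differed between the secreted, protease and folding genes and the rest, which include the cell surface genes. Of the 11 secreted, protease and folding genes, 3 had both knockdown values above the control, 6 below and 2 on either side, and of the other 27 genes, 18 were above, 5 below and 4 on either side. Among tested genes this was 3 above and 5 below of 10, and 17 above and 4 below of 25. The background over all genes tested was 42.4% above and 42.6% below. The counts of the 10 secreted, protease and folding genes were thus near the background, and those of the 25 others stood further from it. The median log2 change was -0.15 over the 10 tested secreted, protease and folding genes and 0.24 over the 25 others. With the same total FPKM these medians were -0.23 and 0.16, and with the same upper quartile -0.11 and 0.28. At a mean of at least 5 FPKM they were -0.07 and 0.29, and with no filter -0.23 and 0.24. Taken by role, the median was 0.019 for secreted signals and matrix proteins alone and -0.23 for proteases and folding. Among the others it was 0.016 for cell surface genes, 0.24 for signalling, 0.29 for transcription factors, 0.41 for lipid and 0.27 for scaffold genes. The secreted role alone was thus level with the cell surface role. The roles were assigned with earlier results known, no test of the division was made, and CXCL12, THBS1 and IGFBP4 are secreted proteins on the other side of it. The lowest members lay mostly below the control. Of the 6 members with a mean under 2 FPKM, 5 (WISP2, EGR3, RET, PRSS23 and FOXC1) were below the control with both hairpins and 1 (HEY2) above. Over all genes with a mean of 1 to 2 FPKM, 41.5% were below and 39.2% above, and with a mean under 1 FPKM 36.5% and 25.4%. At higher levels, members below the control were 1 of 10 at 5 to 20 FPKM, 1 of 9 at 20 to 50 FPKM and 4 of 12 from 50 FPKM. Over all genes at these levels, 45.05%, 43.6% and 37.1% were below. Of the 5 low members that were below the control, 3 (WISP2, EGR3 and PRSS23) have bounds from 0 in all libraries. The part of expression level in the division was not tested.

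**Figure D3:**
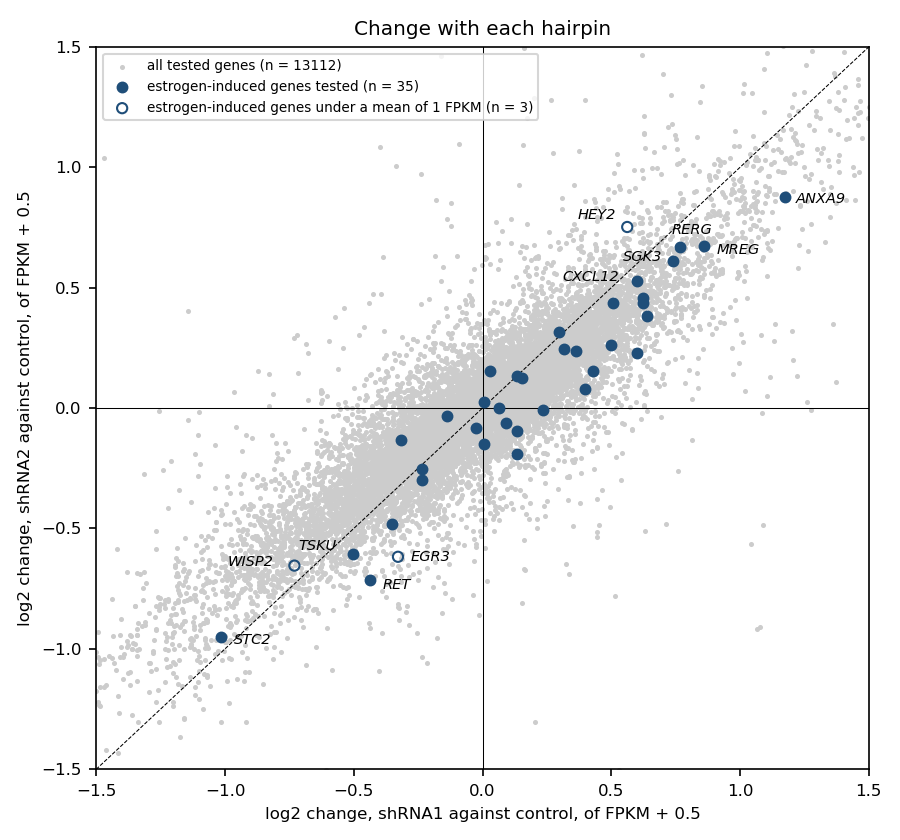
Log2 change of FPKM + 0.5 with shRNA1 (x axis) and with shRNA2 (y axis) against the shared control, for all 13112 tested genes (grey), the 35 tested estrogen-induced genes (filled blue) and the 3 under a mean of 1 FPKM (open blue); the axes end at 1.5, so grey genes with larger changes are not drawn. Most filled points above 0 sit below the dashed line of equal change (16 of 20, against 66.1% of all genes above the control with both), with ANXA9 at 1.18 and 0.88.

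The hairpins were then set against each other. FPKM was higher with shRNA1 than with shRNA2 in 28 of the 35 tested members (80.0%), against 47.6% of all genes tested. Among genes above the control with both hairpins the shares were 80.0% of members (16 of 20) and 66.1% of all genes, and among those below it 66.7% of members (6 of 9) and 28.7% of all genes. The median difference, shRNA1 minus shRNA2 on the log2 scale, was 0.13 over the members and -0.0089 over all genes. After scaling to an equal total, an alternative chosen after seeing the data, the count was 20 of 35 members (57.1%) against 28.6% of all genes, with medians of 0.04 and -0.09. The 3 genes with the widest gap were MAPT, at 0.60 with shRNA1 and 0.23 with shRNA2, SIAH2, at 0.40 and 0.08, and ABCA3, at 0.13 and -0.19. In STC2 the difference was -0.06, in OLFM1 0.02 and in MYBL1 -0.02. At least 1.5-fold above the control were 9 tested members with shRNA1 and 4 with shRNA2, and at least 1.5-fold below it were 2 and 4. The background was 9.62% above and 12.7% below with shRNA1, and 7.48% above and 8.94% below with shRNA2, so that the shRNA2 counts of 4 and 4 in 35 (11.4% each) were near it. Deposited bounds of both hairpins were clear of the control bounds for 0 members, and for 0.0839% of all tested genes on the higher side and 0.221% on the lower. The bounds of the members reach from 33.2% to 426% of the value above and, down to 0, below it in the control (UGCG and EGR3).

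Some of the genes are neighbours in the genome. RAPGEFL1, RARA and IGFBP4 lie on the same strand of chromosome 17, at 40177010 to 40195656, 40309192 to 40357643 and 40443461 to 40457731 (GRCh38, GENCODE release 29). They were lower, higher and higher, with log2 changes of -0.27 (SE 0.10), 0.29 (SE 0.15) and 0.30 (SE 0.10). Between them lie 3 other protein-coding genes that were tested. CDC6, which loads the replicative helicase, had 45.4 FPKM in the control library, 15.6 under shRNA1 and 17.8 under shRNA2. TOP2A, the topoisomerase of dividing cells, had levels of 144, 67.5 and 90.1 FPKM, and WIPF2, an actin regulator, 8.62, 8.54 and 9.78 FPKM. Within this stretch the cell cycle genes CDC6 and TOP2A were thus below the control while RARA and IGFBP4 were above it, and limma called 0 of the 6 across the whole table (adjusted p from 0.0721 to 0.718, Benjamini-Hochberg). With protein-coding genes alone it called CDC6 (adjusted p 0.00317) and TOP2A (0.0135) lower. MYBL1 and SGK3, both above the control, are also neighbours, 53349 bases apart on chromosome 8.

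Other genes of the estrogen response were divided as well. Of 34 further estrogen-induced genes 29 were tested, 17 with both knockdown values above the control and 10 below, with a median log2 change of 0.13. None was called by limma across the whole table (0), 12 were higher and 6 lower at an unadjusted p under 0.05, and 9 were called higher and 6 lower with protein-coding genes alone. Over all genes tested, 42.4% were above the control with both hairpins and 42.6% below. By limma, 13.7% were higher and 15.9% lower at an unadjusted p under 0.05, and 7.11% and 11.3% were called with protein-coding genes alone. The highest were ELOVL2, a fatty acid elongase (0.599, 1.86 and 1.52 FPKM), the transcription factor MYB (4.31 FPKM in the control and 7.98 FPKM with shRNA2, a log2 change of 1.13 with shRNA1 and 0.82 with shRNA2) and the corepressor NRIP1 (19.7, 35.1 and 31.9 FPKM). The lowest were the EGF receptor ligand AREG (170.0, 72.2 and 86.6 FPKM), the trefoil peptide TFF1 (6.39, 3.13 and 3.72 FPKM) and the small heat shock protein HSPB8 (56.1, 35.1 and 36.5 FPKM). AREG and TFF1 are secreted, as STC2 and TSKU are, but so are CXCL12, THBS1 and IGFBP4, which lay above the control. The secreted genes of this further list were not counted by direction. The classical targets PGR, the progesterone receptor (41.4, 55.4 and 53.7 FPKM), and GREB1 (39.1, 47.6 and 42.9 FPKM) were above the control with both hairpins.

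The receptor's own gene was not separated from its control. ESR1 had 16.8 FPKM in the control library, 16.5 under shRNA1 and 17.96 under shRNA2, a log2 change of 0.04 (SE 0.11). Its deposited bounds are wide, from 0 to 41.3 FPKM in the control, 7.59 to 25.4 with shRNA1 and 0 to 45.9 with shRNA2. Of 23 genes for the receptor, pioneer factors and cofactors, all tested, 13 were above the control with both hairpins and 7 below (median 0.13). Called across the whole table were 0, at an unadjusted p under 0.05 there were 6 higher and 3 lower, and with protein-coding genes alone limma called 5 higher and 2 lower. The background over all genes tested was 42.4% above and 42.6% below with both hairpins. It was 13.7% higher and 15.9% lower at an unadjusted p under 0.05 by limma, and 7.11% and 11.3% with protein-coding genes alone. The RNA helicase DDX17 (49.7, 92.8 and 88.1 FPKM) and the arginine methyltransferase CARM1 (8.52, 14.8 and 12.8 FPKM) were among the highest. The coactivator NCOA3 (24.2, 10.1 and 12.3 FPKM), the RNA helicase DDX5 (222, 144 and 153 FPKM) and the acetyltransferase EP300 (5.16, 4.03 and 3.06 FPKM) were lowest. The bounds of EP300 start at 0 in each library. For FOXA1 the levels were 65.7, 94.8 and 91.5 FPKM, and for the luminal factor GATA3 43.4, 39.0 and 40.0 FPKM. The E2F targets, listed here for the proliferative part of the response, went 1 way. Their list was chosen with earlier results of these data known. All 20 of 20 had both knockdown values below the control, with a median log2 change of -0.67. Of these, 2, GINS2 and MYBL2, fell by limma across the whole table (adjusted p 0.0361 and 0.0362, Benjamini-Hochberg). With protein-coding genes alone 19 of the 20 were called lower. GINS2, a subunit of the replicative helicase, fell from 41.5 FPKM to 6.18 and 7.46 FPKM, and MYBL2 from 43.4 FPKM to 6.53 and 8.01 FPKM, while its relative MYBL1 was above the control. Next lowest was RRM2, a subunit of ribonucleotide reductase, with 60.3, 19.7 and 24.5 FPKM, and nearest to the control were MCM4 (147, 111 and 124 FPKM), MCM3 (61.7, 45.5 and 47.4 FPKM) and E2F1 (20.7, 14.6 and 15.2 FPKM).

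**Figure D4:**
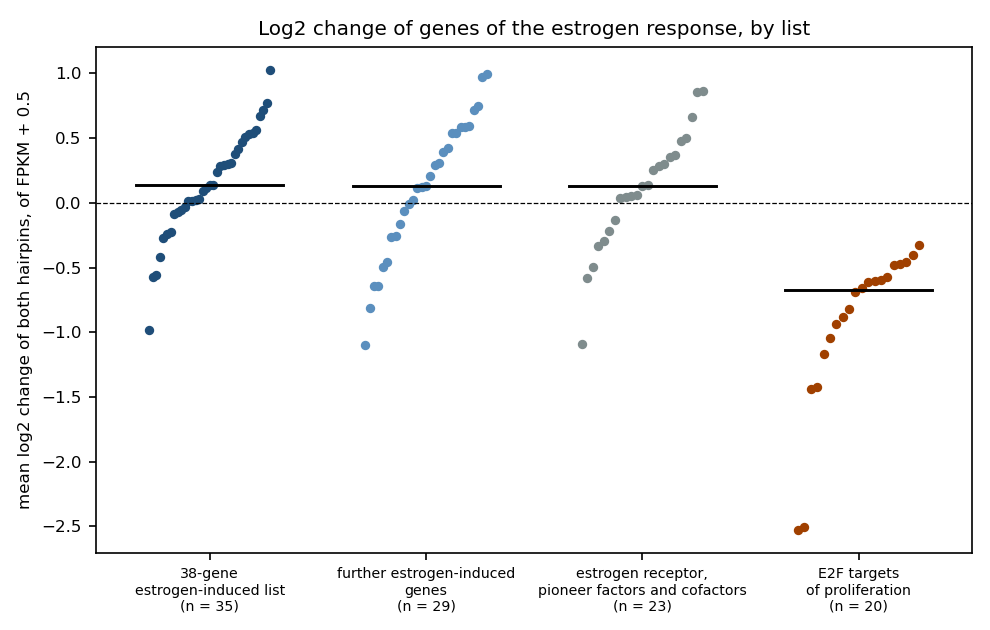
Mean log2 change of both hairpins, on log2(FPKM + 0.5), for the tested genes of the 38-gene set and of 3 other lists; each point is 1 gene, bars are list medians (0.13, 0.13, 0.13 and -0.67) and the dashed line is the median of all tested genes. The first 3 lists spread to both sides of 0 and the E2F targets lie below it.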

How the data were processed

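RNA sequencing of T47D cells gave 3 libraries, 1 control and 2 ERINA knockdown. The authors deposited FPKM per gene with a lower and an upper confidence bound and a status, per the file headers, and the level of those bounds is not stated. Per the submitters' processing notes, STAR, RSEM and build GRCh38 were involved; how each was used is not recorded there. The column layout is like that of Cufflinks output, so which software made the FPKM and bounds is not settled, and the depth estimate rests on those bounds. Nothing used here states the annotation release, the strand setting or a scaling of the libraries to each other, and the values were used as deposited. Since FPKM are not counts, no count model was used. Depth was estimated from genes with 1 annotated transcript of at least 2000 nt whose bounds mark a single fragment.

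Changes were computed on log2(FPKM + 0.5), which understates those of low genes, for genes whose mean FPKM reached 1. Knockdown was compared with control by limma 3.58.1 in R 4.3.3 (lmFit, eBayes with trend, two-sided), Benjamini-Hochberg adjusted over all genes tested at 0.05. The fit has 1 residual degree of freedom, from the shRNA libraries, and assumes that the control varies like them. The fit was tested on simulated data in which the noise of all 3 libraries was drawn from the spread between the shRNA libraries. That simulation shares the assumption about the control and cannot check it. The genes named are all members, the 3 highest and 3 lowest of each other list, and a few fixed key genes, with CDC6, TOP2A and WIPF2 added for their position. Some items of these lists are not reported here. Members, roles and lists were chosen with earlier results of these data known. Gene types and coordinates came from GENCODE release 29, promoters from RefSeq. Alternatives covered the pseudocount, filter, scaling, variance model, gene class, fold and each knockdown library. Python 3.11.15 with pandas 2.3.3, numpy 2.4.6 and, for plots, matplotlib 3.10.9 did the rest.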

Additional observations from a re-analysis of the deposited data

How the results depend on the processing

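The calls over all genes depended on the fit. Against 11 genes higher and 35 lower, limma called 0 and 0 with no filter, 65 and 110 with the same total FPKM, 430 and 595 with the robust option, 821 and 1299 with protein-coding genes alone, and 6 higher without the trend. Against 0 and 0 members called, there were 6 higher and 2 lower with the robust option, 9 and 2 with protein-coding genes alone, and 1 lower (STC2) with the same total. Members with both values below the control numbered 9 of those tested, and 15 to 9 with 1 hairpin left out, 15 being without shRNA1. At a ratio of 5 to 4 in place of 1.5, 9 were higher and 4 lower with both hairpins, and at 2, 0 and 0. Without 1 hairpin the higher count at 1.5 ran from 4 to 9 (9 without shRNA2) and the lower from 2 to 4 (4 without shRNA1), and 4 were lower with the same total and 1 with the same upper quartile. Bounds clear of the control on the higher side ran from 0 to 1 without 1 hairpin (1, ANXA9, without shRNA2). The median log2 change of members, 0.13, was 0.24 at a mean FPKM of at least 5, 0.0615 with the same total and 0.17 with the same upper quartile. The medians of all genes tested in these settings were 0.0043, -0.0732 and 0.038 in turn. With the same total, the log2 change turned to -0.0596 for ADCY9, -0.0538 for CELSR2, -0.0585 for TFF3 and -0.0445 for TIPARP, and with the same upper quartile to 0.01 for ABCA3. Without 1 hairpin it ran from -0.19 to 0.13 for ABCA3, -0.0628 to 0.0911 for ADCY9, -0.15 to 0.0061 for CTSD, -0.0085 to 0.24 for SYT12, -0.10 to 0.13 for TFF3 and -0.0009 to 0.0625 for TIPARP. The cause of these shifts was not tested. No other tested member changed direction. No paired analysis was possible because the study has a single control library, so the groups share fewer than 2 replicate numbers.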
